A study of Mus musculus with 22 samples.

Results

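The S100 proteins are small calcium sensors that work mostly as dimers, and 9 of their genes were followed here through the stroma of a mouse mammary tumor: S100a1, S100a4, S100a6, S100a10, S100a11, S100a13, S100a14, S100a16 and S100b. They were chosen by symbol from the 41388 genes in the deposited count tables. No cut on a measured value was used, but earlier results of these data were known. All 9 were among the 15018 genes that passed the filter on low counts and were tested. Messenger RNA had been sequenced from 22 libraries of sorted stromal cells of C57BL/6 mice at postnatal day 56. Each mouse carried the Osx-cre transgene and the Ai9 reporter. In these mice, Cre driven by the Osterix (Sp7) promoter switches on TdTomato (TdT) in cells that express Cre and in their descendants. The study reports such labeling in osteolineage cells and also in subsets of hematopoietic stem and progenitor cells. Cells separated from the GFP-labeled tumor cells had been sorted by TdT and CD45, the pan-leukocyte surface protein, into TdT single positive (TdT+;CD45-), double positive (TdT+;CD45+), CD45 single positive (TdT-;CD45+) and double negative (TdT-;CD45-) populations. The mice were Osx-cre;Ai9 (wild type, WT, 4 inoculated) or Cdh2-cKO;Ai9 (cKO, 6 inoculated), which carry in addition a conditional deletion of Cdh2, the N-cadherin gene. Each genotype gave 2 TdT single positive libraries and 3 of each other population. The tumor is MMTV-BO1, grown orthotopically, by the labels, and PyMT-BO1, grown under the skin, by the methods of the study, a difference that was not resolved here.

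Binding of calcium opens a hydrophobic face of an S100 dimer, which then docks onto a target protein such as an annexin, a myosin heavy chain or a tropomyosin. Several members are also released from cells and bind receptors such as RAGE, encoded by Ager. S100A4, also called fibroblast-specific protein 1, is widely used as a fibroblast marker and is used so in the study, and S100B is best known from astrocytes and Schwann cells.

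Expression is given as CPM, the reads of a gene scaled to a common library size after TMM normalization, and a difference as a log2 fold change with its standard error (SE). A gene was called changed where its p in edgeR's quasi-likelihood test, adjusted by Benjamini-Hochberg over all 15018 genes, was at most 0.05. The libraries held between 16594228 and 26784003 counted reads. A count of 3 reads, taken as the floor for presence, corresponded to 0.103 to 0.201 CPM, and this floor covers counting error only. The p-values measure the spread between the biological replicates of the labels, and the main fit took all libraries as independent.

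The sort was checked against marker genes, and several libraries stood apart. The summed level of 10 leukocyte genes was 15870 to 21470 CPM in the 12 CD45+ libraries and 256.4 to 10360 CPM in the 10 CD45- libraries, of which double negative WT replicate 3 was the highest. Among CD45- libraries TdT single positive cKO replicate 1 came next, at 6924 CPM. The summed level of 10 fibroblast genes was 5162 to 67540 CPM in CD45- and 73.2 to 269.0 CPM in CD45+ libraries. CD45 single positive WT replicate 2 held far more T cell RNA than the others, with 514.4 CPM of Cd3e against at most 89.6 CPM elsewhere. Its 6 neutrophil genes summed to 848.2 CPM, against at most 95.9 CPM elsewhere. Its 6 endothelial genes summed to 217 CPM, against at most 37.5 CPM in the other CD45+ libraries. TdT single positive WT replicate 1 had the lowest Ptprc (CD45) level of all, 2.45 CPM, and the highest Col1a1 level, 22370 CPM. Cdh2, the targeted gene, was not lower in cells labelled cKO: it read 17.2 and 13.1 CPM in TdT single positive cKO libraries and 9.13 and 5.19 CPM in the WT ones, and counts summed over the gene do not show whether the targeted exons were missing.

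Of the 9 genes, 8 lie on chromosome 3 in the mouse genome (GRCm38). In the stretch from S100a1 to S100a6, the gene models of S100a1 and S100a13 start 43 bases apart on opposite strands. Their RefSeq starts are 105 bases apart. The models of S100a14, S100a16, S100a4 and S100a6 begin 15.8, 26.2, 92.7 and 101.9 kb along the plus strand from the first base of the S100a1 model. S100a11 and S100a10 follow at 3009.5 and 3044.0 kb, and S100b lies alone on chromosome 10 and overlaps Dip2a on the opposite strand. No strand setting was stated for the counting. The study counted unambiguous reads only, so reads in that overlap may be missing from the S100b count. Sequence just upstream of a start was found for 7 of the 9 genes in RefSeq promoters (GRCm38.p6), none of it for S100a10 and S100a14. Printed here are the 42 bases between the S100a1 and S100a13 gene models (chr3:90514393-90514434, plus strand), because these neighbors changed together, and 250 upstream bases for S100a4 (chr3:90603520-90603769), the fibroblast marker, S100a16 (chr3:90537004-90537253), which changed most, and S100a11 (chr3:93520246-93520495), which changed less, all on the plus strand. Capitals mark a TATA box (TATAAA), GC boxes (GGGCGG) and AP-1 sites (TGANTCA), searched on both strands.
S100a1-S100a13 gap: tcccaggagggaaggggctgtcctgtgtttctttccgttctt
S100a4: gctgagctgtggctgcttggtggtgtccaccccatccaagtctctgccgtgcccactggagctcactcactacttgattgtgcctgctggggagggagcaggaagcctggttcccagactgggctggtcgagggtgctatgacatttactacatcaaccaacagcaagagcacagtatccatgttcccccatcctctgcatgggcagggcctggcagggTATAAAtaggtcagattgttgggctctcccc
S100a16: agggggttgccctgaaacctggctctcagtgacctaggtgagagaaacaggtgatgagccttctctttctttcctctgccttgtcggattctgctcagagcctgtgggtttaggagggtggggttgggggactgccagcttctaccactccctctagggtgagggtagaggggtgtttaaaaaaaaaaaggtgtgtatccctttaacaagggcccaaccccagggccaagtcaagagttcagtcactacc
S100a11: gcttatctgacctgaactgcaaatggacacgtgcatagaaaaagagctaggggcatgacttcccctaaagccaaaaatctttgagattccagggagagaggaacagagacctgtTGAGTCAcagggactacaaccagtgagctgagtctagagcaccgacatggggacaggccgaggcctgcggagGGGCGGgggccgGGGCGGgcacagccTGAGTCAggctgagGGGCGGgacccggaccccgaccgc
A TATA box began 31 bases upstream of the S100a4 start, and 12.4% of the 32841 RefSeq promoters held one within 250 upstream bases. The S100a11 window held 3 GC boxes and 2 AP-1 sites, against at least one GC box in 32.7% and at least one AP-1 site in 6.75% of all promoters. None of these motifs was found in the S100a16 window above or in the windows of S100a1, S100a6, S100a13 and S100b. A RefSeq start of S100a16 further downstream had 1 GC box and 1 AP-1 site in its window. These matches describe letters and were not tested against expression.

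The main division was between CD45+ and CD45- populations. Of the 9 genes 7 were called, 2 higher and 5 lower in CD45+ cells, while 63.7% of all tested genes were called, 32.6% of all tested genes higher and 31.1% lower. The count of 7 is to be read against that background, since most genes differed between these sorts. The median log2 fold change of the 9 genes was -0.95, against 0.06 over all genes tested. The highest and lowest values of CD45+ and CD45- libraries did not overlap for 3 of the 9 genes, S100a6, S100a11 and S100a16, and for 14.7% of all tested genes. In these bulk samples, fewer cells of an expressing type and less RNA per cell cannot be told apart.

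**Figure D1:**
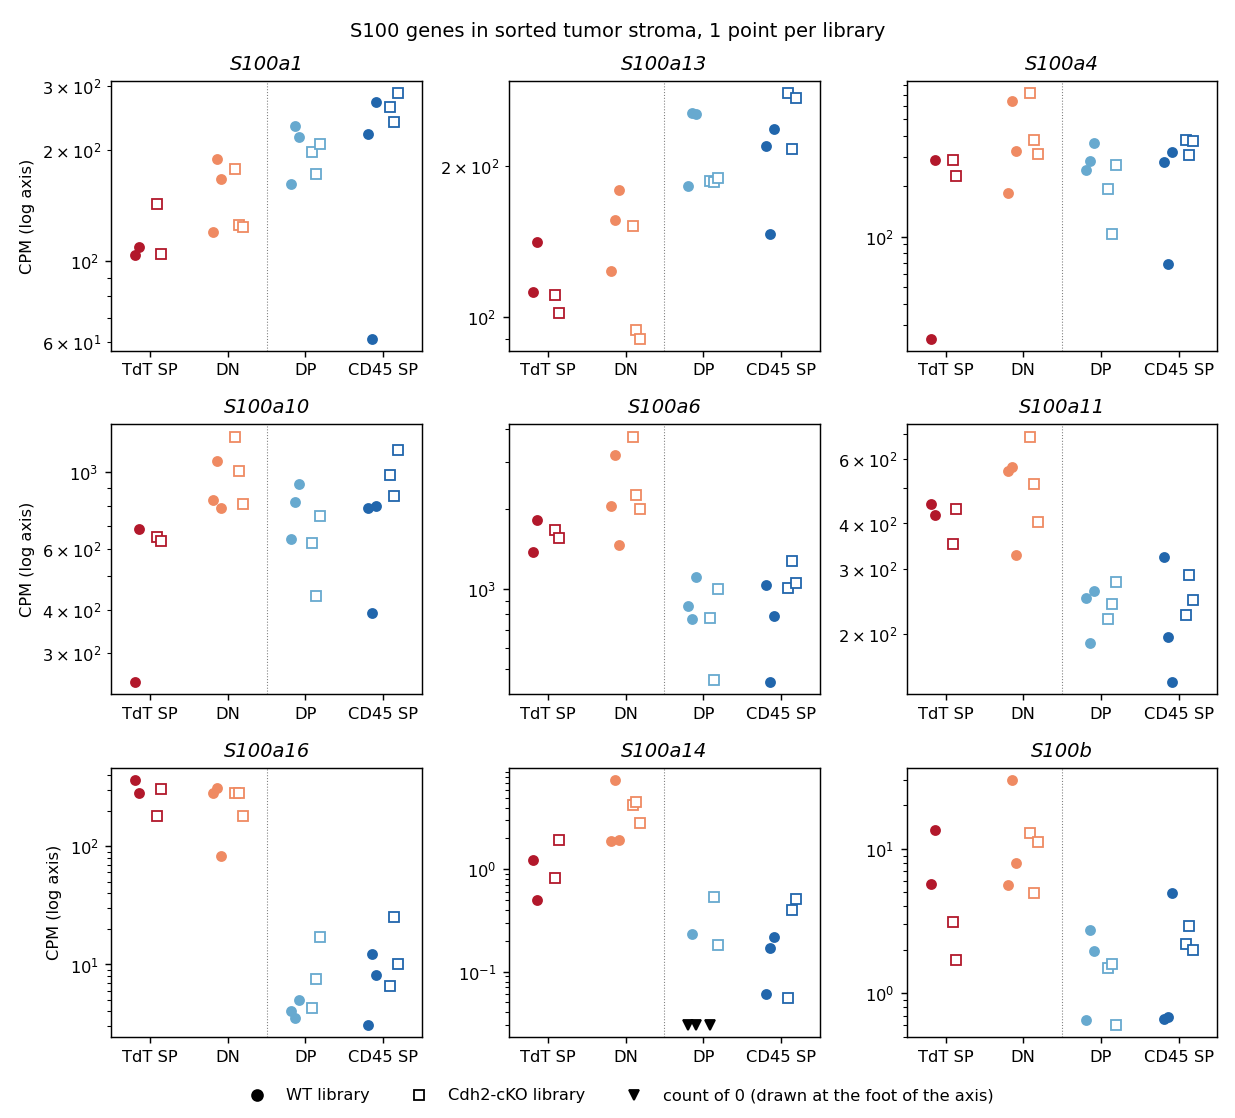
CPM (log axis) of each S100 gene in the 22 libraries by sorted population, with WT libraries as filled circles, cKO libraries as open squares and libraries with a count of 0 as triangles at the foot of the axis; DN is double negative, DP double positive and SP single positive. S100a16 lies between 82.7 and 364.4 CPM left of the dotted line (CD45-) and between 3.07 and 25.02 CPM right of it (CD45+), whereas the S100a4 values of the 2 sides overlap.

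S100a16, a poorly characterized member found in many tissues, changed most. Its CD45- values were 364.4 and 281.1 CPM in TdT single positive WT, 181.0 and 306.4 CPM in TdT single positive cKO, 284.2, 311.8 and 82.7 CPM in double negative WT, and 281.1, 282.3 and 181.5 CPM in double negative cKO libraries. The CD45+ values were 4.04, 3.51 and 4.96 CPM in double positive WT, 4.31, 7.57 and 16.95 CPM in double positive cKO, 3.07, 12.2 and 8.08 CPM in CD45 single positive WT, and 6.59, 25.02 and 10.1 CPM in CD45 single positive cKO libraries. The lowest CD45- value belonged to double negative WT replicate 3, the CD45- library with the highest leukocyte level, and was still above every CD45+ value. S100a16 was 31.8-fold lower in CD45+ cells (log2 fold change -4.99, SE 0.345, edgeR adjusted p = 1.98e-09).

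S100a6 and S100a11, which both bind annexins and are common in fibroblasts, were lower in CD45+ cells by a smaller factor. S100a6, also called calcyclin, ranged from 1380 to 3743 CPM with a median of 1909 CPM in the 10 CD45- libraries. In the 12 CD45+ libraries it ranged from 445.6 to 1268 CPM with a median of 926.2 CPM. S100a11 had a lowest, median and highest value of 327.6, 444.9 and 690.0 CPM in CD45- and 148.1, 244.3 and 323.3 CPM in CD45+ libraries. Neither gene overlapped between the groups, although the highest CD45+ value of S100a11 came close to the lowest CD45- value, again that of double negative WT replicate 3. The log2 fold change was -1.19 (SE 0.189, edgeR adjusted p = 3.43e-05) for S100a6, a 2.28-fold lower level, and -0.95 (SE 0.148, edgeR adjusted p = 3.05e-05) for S100a11, a 1.93-fold lower level.

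S100a14 and S100b were scarce everywhere and also lower in CD45+ cells. S100a14, a member described mainly in epithelia, read 0.504 to 7.47 CPM in CD45- libraries, with a median of 1.92 CPM, and reached 0.534 CPM at most in CD45+ libraries. In 3 of the 6 double positive libraries no read was counted on it. The total over libraries was 567 reads in CD45- and 41 reads in CD45+ cells, and the fitted 11.3-fold difference (log2 fold change -3.50, SE 0.552, edgeR adjusted p = 3.25e-05) rests on those few reads. S100b had a lowest, median and highest value of 1.69, 6.85 and 30.1 CPM in CD45- and 0.601, 1.78 and 4.96 CPM in CD45+ libraries. The S100b ranges overlapped, and the log2 fold change was -2.05 (SE 0.409, edgeR adjusted p = 0.000306). The 6 Schwann cell genes summed to 2.14 to 17.8 CPM in CD45- and 20.6 to 54.3 CPM in CD45+ libraries. Among them, Sox10 was at 0 in every library of 4 of the 8 groups, and 46 of its 54 reads lay in 1 library. The part of Schwann cells in the S100b values was not tested.

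S100a1 and S100a13 were the genes that rose in CD45+ cells. S100A1 is best known as a regulator of calcium handling in muscle, and S100A13 takes part in the release of FGF1 and interleukin 1 alpha, which lack a signal peptide. S100a13 ranged from 90.4 to 179.1 CPM with a median of 117.6 CPM in CD45- and from 146.1 to 279.7 CPM with a median of 218.1 CPM in CD45+ libraries. S100a1 had a lowest, median and highest value of 103.8, 124.2 and 188.9 CPM in CD45- and 61.4, 219.3 and 286.2 CPM in CD45+ libraries. For both genes the lowest CD45+ value was that of CD45 single positive WT replicate 2, and the ranges overlapped. That library stood apart in T cell, neutrophil and endothelial genes. The log2 fold change was 0.82 (SE 0.126, edgeR adjusted p = 2.49e-05) for S100a13 and 0.67 (SE 0.192, edgeR adjusted p = 0.00547) for S100a1, 1.77-fold and 1.59-fold higher levels. In the WT libraries alone the S100a1 difference was 0.58 and was not called (edgeR adjusted p = 0.206). Markers of skeletal muscle, where S100a1 is abundant, summed to 8.21 to 185.1 CPM over 6 genes in CD45- and 6.15 to 105.7 CPM in CD45+ libraries.

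S100a4 and S100a10 showed no called difference by CD45. S100A4 binds non-muscle myosin and is the fibroblast marker introduced above, and S100A10 forms a complex with annexin A2 at the plasma membrane. In WT, S100a4 read 24.8 and 287.0 CPM in TdT single positive, 183.3, 645.9 and 323.5 CPM in double negative, 249.9, 284.4 and 361.9 CPM in double positive, and 279.2, 68.5 and 318.0 CPM in CD45 single positive libraries. In cKO it read 288.3 and 229.7 CPM in TdT single positive, 714.8, 379.4 and 312.4 CPM in double negative, 193.1, 104.3 and 268.3 CPM in double positive, and 376.1, 307.6 and 369.3 CPM in CD45 single positive libraries. The median was 300.4 CPM over CD45- and 281.8 CPM over CD45+ libraries, and the ranges overlapped. The highest values were those of a pair of double negative libraries, 1 of each genotype. The log2 fold change was -0.18 (SE 0.353, 95% confidence interval -0.93 to 0.56, edgeR adjusted p = 0.672). Leaving out TdT single positive WT replicate 1 gave -0.40 and leaving out replicate 2 gave 0.48, neither of them called.

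S100a10 ranged from 247.9 to 1268 CPM with a median of 800.1 CPM in CD45- and from 391.0 to 1162 CPM with a median of 793.0 CPM in CD45+ libraries. The ranges overlapped over most of their length. Its log2 fold change was 0.05 (SE 0.181, 95% confidence interval -0.33 to 0.43, edgeR adjusted p = 0.836). Its sign turned with RLE scaling, with DESeq2 and in the cKO libraries alone. Anxa2, the partner of S100A10, had a median of 2805 CPM in CD45- and 2338 CPM in CD45+ libraries (log2 fold change -0.40, SE 0.176, edgeR adjusted p = 0.0575) and was not called by edgeR, whereas voom (limma adjusted p = 0.0359) and DESeq2 (adjusted p = 0.0173) called it lower.

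**Figure D2:**
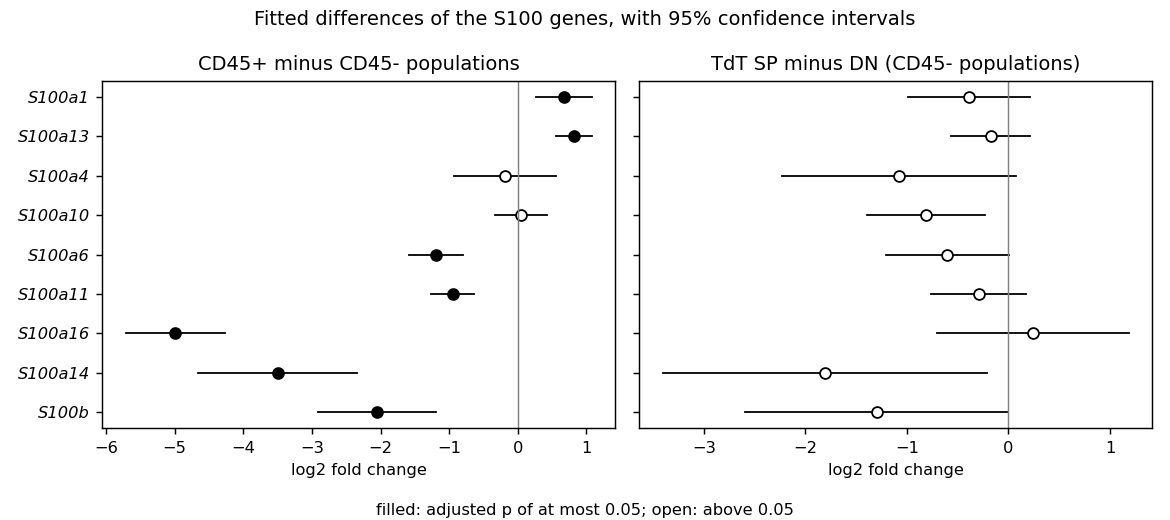
Log2 fold changes of the 9 genes with 95% confidence intervals, for CD45+ minus CD45- populations (left) and for TdT single positive minus double negative cells (right); filled points have an edgeR adjusted p of at most 0.05. On the left 7 of 9 points are filled, from -4.99 for S100a16 to 0.82 for S100a13, and on the right none is.

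Along chromosome 3 the differences did not run evenly through the cluster. S100a1 and S100a13, whose gene models start 43 bases apart, were both higher in CD45+ cells. In contrast, S100a14, whose model starts 2267 bases beyond the end of S100a13, and S100a16 were lower. S100a4 and S100a6 lie 6848 bases apart, and S100a6 was called and S100a4 was not. The same held for S100a11, which was called, and S100a10, 28792 bases away, which was not. Whether neighbors differed from each other was not tested.

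**Figure D3:**
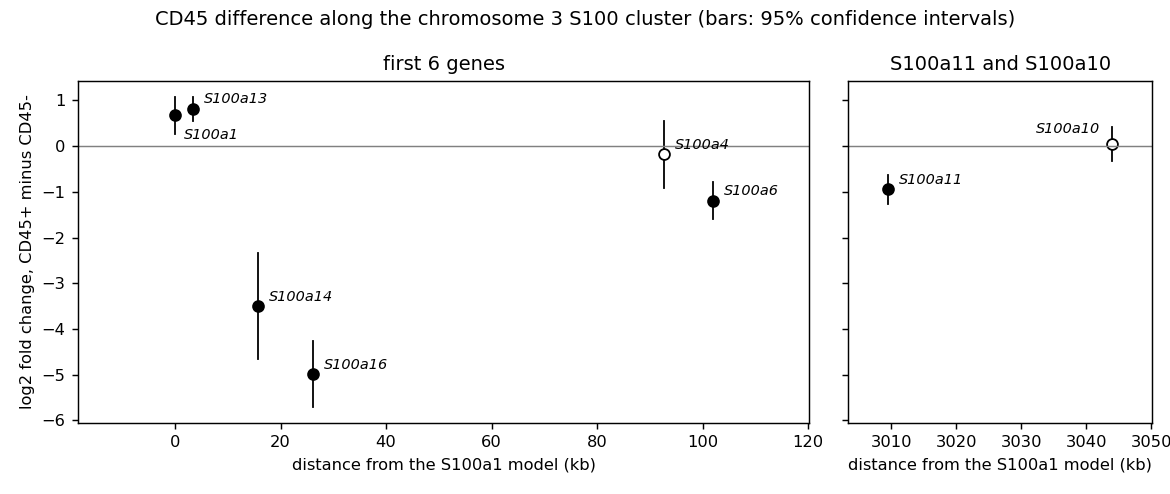
Log2 fold change between CD45+ and CD45- populations (points, with 95% confidence intervals) against the distance along the plus strand from the first base of the S100a1 model, for the 8 genes on chromosome 3; filled points have an edgeR adjusted p of at most 0.05. S100a1 and S100a13 lie above 0, S100a14 and S100a16 at -3.50 and -4.99, and S100a4 and S100a10 at -0.18 and 0.05.

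The make-up of the S100 pool also differed between the sorts. Levels of different genes were compared as CPM per kb of exonic length. S100a6 made up 51.3% ± 1.88 (SD, n = 4) of the summed CPM per kb of the 9 genes in TdT single positive and 51.9% ± 3.19 (SD, n = 6) in double negative libraries. In double positive and CD45 single positive libraries its share was 35.6% ± 3.79 (SD, n = 6) and 36.0% ± 3.23 (SD, n = 6). S100a6 was thus the most abundant of the 9 per length in all 4 populations, and its share was lower in both CD45+ populations. S100a10 held 10.2% ± 3.01 in TdT single positive, 12.6% ± 1.503 in double negative, 17.96% ± 1.41 in double positive and 19.0% ± 2.06 in CD45 single positive libraries. S100a1 held 3.83% ± 0.650 in TdT single positive, 3.50% ± 0.984 in double negative, 9.17% ± 1.61 in double positive and 8.69% ± 2.19 in CD45 single positive libraries. S100a16 supplied 4.14% ± 1.61 and 2.26% ± 0.734 of the pool in TdT single positive and double negative libraries and 0.137% ± 0.0950 and 0.207% ± 0.155 in double positive and CD45 single positive libraries. S100b reached at most 0.246% and S100a14 at most 0.0826% of the pool in any library. The shares of a library sum to the whole pool and are not independent of each other.

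**Figure D4:**
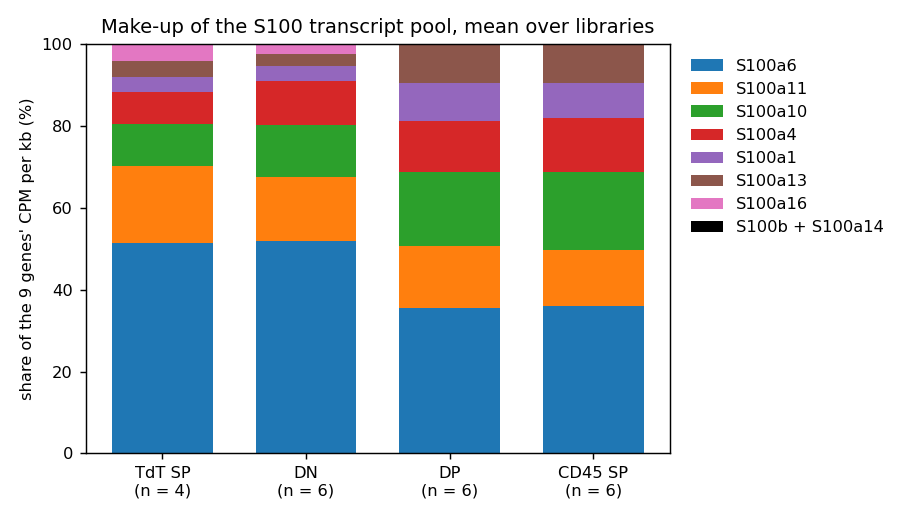
Mean share (%) of each S100 gene in the summed CPM per kb of the 9 genes, as stacked bars for the 4 sorted populations, TdT single positive (n = 4 libraries), double negative, double positive and CD45 single positive (n = 6 each). The S100a6 segment covers 51.3% and 51.9% in the CD45- populations and 35.6% and 36.0% in the CD45+ populations.

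Within the CD45- cells, TdT single positive was compared with double negative, to ask how the Osterix-lineage cells differed from other CD45- stroma. No member was called by edgeR, where 1.89% of all genes were, and 3 had an unadjusted p under 0.05: S100a10, S100a14 and S100b. S100a10 read 247.9 and 684.6 CPM in WT and 651.0 and 632.6 CPM in cKO TdT single positive libraries, and 828.8, 1080 and 790.9 CPM in WT and 1268, 1009 and 809.2 CPM in cKO double negative libraries. All 4 TdT single positive values lay below all 6 double negative ones, and the share of all genes separated in this way was not counted. The log2 fold change was -0.81 (SE 0.276, 95% confidence interval -1.40 to -0.23, edgeR adjusted p = 0.121). S100a10 was called by voom (-0.93, limma adjusted p = 0.0447) and by DESeq2 (-0.84, DESeq2 adjusted p = 0.0471). It was also called without both libraries that stand apart in their immune genes (-0.86, edgeR adjusted p = 0.0452). These were double negative WT replicate 3, high in leukocyte genes, and CD45 single positive WT replicate 2, high in T cell and neutrophil genes. TdT single positive WT replicate 1 was kept in that run. So was TdT single positive cKO replicate 1, whose leukocyte genes summed to 6924 CPM. With single libraries left out the S100a10 value ran from -0.54, without TdT single positive WT replicate 1, to -1.27, without replicate 2. The latter was called (edgeR adjusted p = 0.0262).

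S100a14 read 1.23 and 0.504 CPM in WT and 0.823 and 1.91 CPM in cKO TdT single positive libraries. In double negative libraries it read 1.89, 7.47 and 1.93 CPM in WT and 4.21, 4.56 and 2.83 CPM in cKO. The ranges overlapped at their ends only, and the log2 fold change was -1.81 (SE 0.757, edgeR adjusted p = 0.203). S100b read 5.72 and 13.5 CPM in WT and 3.12 and 1.69 CPM in cKO TdT single positive libraries, and 5.65, 30.1 and 7.99 CPM in WT and 12.9, 4.95 and 11.1 CPM in cKO double negative libraries. These ranges overlapped, with a log2 fold change of -1.30 (SE 0.616, edgeR adjusted p = 0.262).

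The other 6 genes did not pass either threshold. S100a4 had a log2 fold change of -1.08 (SE 0.545, 95% confidence interval -2.23 to 0.07, edgeR adjusted p = 0.291), with 24.8 to 288.3 CPM in TdT single positive and 183.3 to 714.8 CPM in double negative libraries. That value depended on single libraries: it was -0.64 without TdT single positive WT replicate 1 and -2.40 without replicate 2, and the latter was called (edgeR adjusted p = 0.0309). S100a6 had a log2 fold change of -0.60 (SE 0.287, 95% confidence interval -1.21 to 0.00199), S100a1 of -0.39 (SE 0.285), S100a11 of -0.29 (SE 0.224) and S100a13 of -0.18 (SE 0.185). S100a16 was the one member with a positive estimate, 0.24 (SE 0.449, 95% confidence interval -0.70 to 1.19). The median over the 9 genes was -0.60, against 0.07 over all genes.

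None of the 10 fibroblast, 10 leukocyte or 5 epithelial marker genes tested was called in this comparison. Their median log2 fold changes were 1.14 for the fibroblast, 1.06 for the leukocyte and -0.84 for the epithelial genes, against 0.07 over all genes. Krt18, a keratin of luminal epithelium, read 17.8, 431.6, 666.3 and 693.4 CPM in TdT single positive libraries and 372.2 to 1570 CPM in double negative libraries, while Epcam reached 2.04 CPM at most in any CD45- library. TdT single positive WT replicate 1 was the lowest for Krt18, Ptprc, S100a4 and S100a10 alike among CD45- libraries. By CD45, Epcam and Cdh1 were called higher in CD45+ cells, with log2 fold changes of 4.96 and 4.08. Krt8, Krt18 and Krt19 were called lower, so the 5 epithelial genes did not behave as 1 set. The part of epithelial, fibroblast or leukocyte RNA in the S100 values was not tested.

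**Figure D5:**
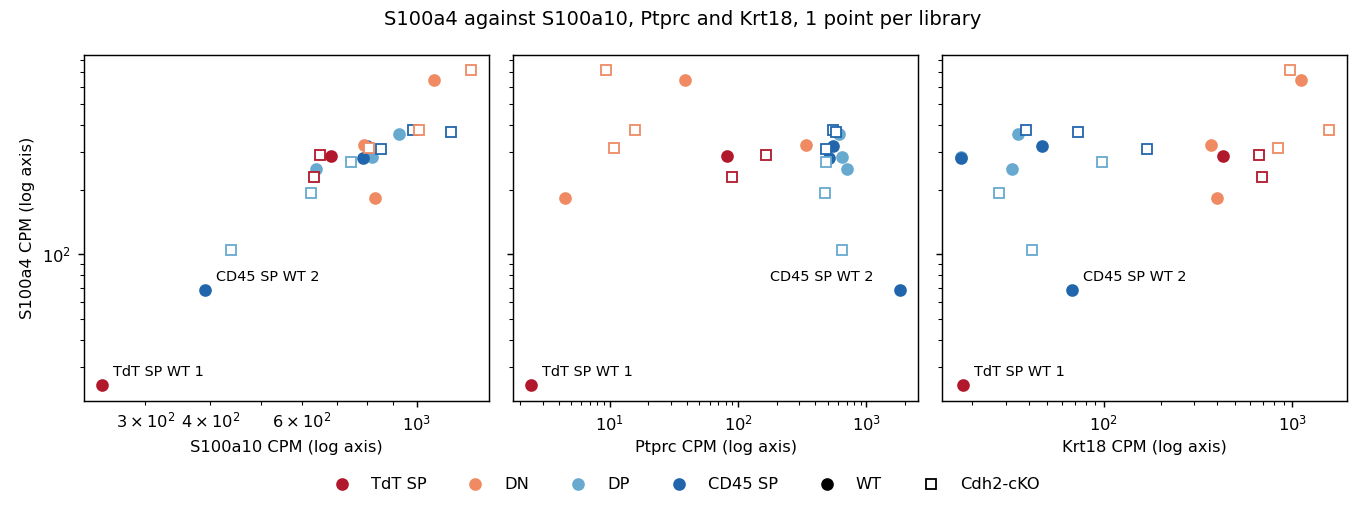
CPM of S100a4 (log axis) in the 22 libraries against CPM (log axes) of S100a10, of Ptprc (CD45) and of Krt18; circles are WT and squares cKO, colored by population. The lowest S100a4 values, 24.8 CPM in TdT single positive WT replicate 1 and 68.5 CPM in CD45 single positive WT replicate 2, lie at the low end of S100a10 and at opposite ends of Ptprc.

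Within the CD45+ cells, double positive and CD45 single positive populations were compared, to ask whether CD45+ cells of the Osterix lineage differed from other leukocytes. No member was called, against 0.00666% of all genes (1 gene), and none had an unadjusted p under 0.05; voom and DESeq2 called none of them either. The log2 fold changes lay between -0.72 for S100a16 and 0.01 for S100a11. For S100a16 the 95% confidence interval was -1.60 to 0.16 (SE 0.418), and double positive libraries ranged from 3.51 to 16.95 CPM and CD45 single positive libraries from 3.07 to 25.02 CPM. S100a4 ranged from 104.3 to 361.9 CPM and from 68.5 to 376.1 CPM in these populations, with a log2 fold change of -0.23 (SE 0.471, 95% confidence interval -1.23 to 0.76). The ranges of both genes overlapped almost entirely.

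The TdT difference within CD45- cells was also set against that within CD45+ cells. No member passed the test of the difference, against 0.00666% of all genes (1 gene), and none had an unadjusted p under 0.05. The smallest p among the members was that of S100a10, with a difference of -0.59 on the log2 scale (SE 0.363, 95% confidence interval -1.35 to 0.18, edgeR adjusted p = 0.632). For S100a4 the difference was -0.84 (SE 0.712, 95% confidence interval -2.34 to 0.66, edgeR adjusted p = 0.723).

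Between the genotypes no member was called in any population. In TdT single positive cells 0.00666% of all genes (1 gene) were called, and 0% in double positive, CD45 single positive and double negative cells. None of the 9 genes had an unadjusted p under 0.05 in any of the 4 populations, and neither voom nor DESeq2 called any. The closest to the threshold was S100b in TdT single positive cells, at 5.72 and 13.5 CPM in WT and 3.12 and 1.69 CPM in cKO libraries. These values did not overlap, but the share of all genes separated in this way was not counted. The S100b log2 fold change was -1.996 (SE 0.951, 95% confidence interval -3.999 to 0.00696, edgeR adjusted p = 0.479), with only 2 libraries on each side.

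In double positive cells the smallest p was that of S100a16, at 4.04, 3.51 and 4.96 CPM in WT and 4.31, 7.57 and 16.95 CPM in cKO libraries (log2 fold change 1.20, SE 0.599, 95% confidence interval -0.06 to 2.46). The ranges overlapped at one library. In CD45 single positive cells it was S100a10, at 785.8, 391.0 and 800.3 CPM in WT and 982.1, 852.0 and 1162 CPM in cKO libraries (log2 fold change 0.60, SE 0.342, 95% confidence interval -0.12 to 1.32). All cKO values lay above the WT ones, of which the lowest was again that of replicate 2. How many of all genes were separated in this way was not counted. In double negative cells it was S100a13, at 123.2, 156.1 and 179.1 CPM in WT and 151.7, 94.2 and 90.4 CPM in cKO libraries (log2 fold change -0.45, SE 0.234, 95% confidence interval -0.94 to 0.04).

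S100a4 had a log2 fold change between cKO and WT of 0.73 (SE 0.820) in TdT single positive, -0.66 (SE 0.669) in double positive, 0.66 (SE 0.669) in CD45 single positive and 0.29 (SE 0.667) in double negative cells. The TdT single positive value was 3.38 without WT replicate 2 and -0.15 without WT replicate 1, neither of them called. The CD45 difference was also compared between genotypes, where no member and 0% of all genes were called. S100a16 had the smallest p there, with a CD45 difference that was 1.15 less negative on the log2 scale in cKO than in WT (SE 0.615, 95% confidence interval -0.14 to 2.45, edgeR adjusted p = 0.668). For S100a4 that difference was -0.51 (SE 0.707, 95% confidence interval -2.001 to 0.98).

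Members that resembled each other across the 22 libraries were described by Pearson's r of log2 CPM, with no test, since libraries of one population share their sort. The gene most like S100a4 of all those tested was S100a10, with r = 0.95, and S100a4 was in turn the gene most like S100a10. Without the pair of libraries farthest from the median of S100a4, TdT single positive WT replicate 1 and CD45 single positive WT replicate 2, r was 0.87. Within the 10 CD45- libraries r was 0.955, and 0.68 without the 2 farthest libraries. Within the 12 CD45+ libraries it was 0.96, and 0.91 without the 2 farthest. S100a1 and S100a13, the divergent neighbors, had r = 0.79 over all libraries, 0.66 in CD45- and 0.83 in CD45+ libraries. Without the 2 farthest libraries r was 0.90, 0.48 and 0.805, and Spearman's rho over the 10 CD45- libraries was 0.49.

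The other members had their closest matches among different genes. S100a16 was most like Tpm1, which encodes a tropomyosin (r = 0.99), Parva and Fhl2, S100a11 was most like Myl12a (r = 0.97), a myosin regulatory light chain, and S100a13 was most like Mrps14 and Mrps18c (r = 0.97 for both), which encode mitochondrial ribosomal proteins. S100a1 was most like Mrpl27 (r = 0.97), of the same kind, and S100a6 was most like Wdr60 (r = 0.94). For S100a16 the CD45 division itself spreads the points into separate clusters. S100a1, S100a6, S100a11 and S100a13 also differed by CD45, and their r with the genes named here was not computed within CD45+ or CD45- libraries. The r of S100a16 with Tpm1 was 0.92 within CD45- libraries and 0.46 without the 2 farthest of them, one of which was double negative WT replicate 3. Within the 12 CD45+ libraries it was 0.92, and 0.85 without the 2 farthest.

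Of 12 other S100 genes listed, 8 were in the files and 4 were tested. S100a8 and S100a9, which together form calprotectin of neutrophils and monocytes, were higher in CD45+ cells, with log2 fold changes of 2.59 (SE 0.622, edgeR adjusted p = 0.00152) and 2.06 (SE 0.590, edgeR adjusted p = 0.0055). S100a3 and S100a7a were lower, at -2.78 (SE 0.365, edgeR adjusted p = 4.72e-06) and -3.61 (SE 0.902, edgeR adjusted p = 0.00248). S100a8 reached 42.1 CPM at most, and S100a7a no more than 1.503 CPM.

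Of 31 listed partners, receptors and targets of S100 proteins, 28 were tested, of which 8 rose and 11 fell in CD45+ cells, where 32.6% of all tested genes rose and 31.1% fell. The median log2 fold change of the 28 was -0.28, against 0.06 over all genes. Those with the largest differences were, among the lower genes, Myl9 (-7.22), a light chain of smooth muscle myosin, the tropomyosins Tpm2 (-5.98) and Tpm1 (-4.20), and Plat (-5.78), which encodes tissue plasminogen activator, a ligand of the S100A10 and annexin A2 complex. Among the higher ones were Il1a (3.99), the cargo of S100A13, and Il10ra (3.62), a receptor chain of interleukin 10. Fgf1, the other cargo of S100A13, had a log2 fold change of -2.11 (SE 0.369, edgeR adjusted p = 8.94e-05), opposite to that of S100a13.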

How the data were processed

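RNA of 22 sorted stromal libraries was sequenced as single-end reads after SMARTer amplification. The authors selected cell preparations by RNA integrity, aligned the reads with STAR 2.0.4b to GRCm38 and counted unique, unambiguous reads on Ensembl genes with featureCounts (1.45 in the submitters' processing notes). The deposited count values are whole numbers for 41388 genes, without normalization. The deposited CPM and RPKM values are the authors' scalings of those counts by library total and gene length, and served only as a check, with a largest relative deviation of 5.11e-14. Amplified reads carry no molecular identifiers, so floors cover counting error only, while standard errors and intervals of fold changes come from the spread between libraries.

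In R 4.3.3, 355 rRNA genes were dropped, and a gene was kept if it exceeded 1 CPM in 2 or more libraries. With edgeR 4.0.16, TMM factors and 8 group means entered a quasi-likelihood fit, and 9 contrasts were tested with Benjamini-Hochberg adjustment over 15018 genes, with no threshold on the fold change. Standard errors were derived from that test. The code was tested on simulated counts. Samples were grouped by their titles. Replicates of a group had a chi-square per degree of freedom of 51.6 to 447.3, far above counting error, so no libraries were merged.

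The 9 members, the other gene lists and the markers were chosen with earlier results of these data known. All members were named. Of the lists, the 6 called genes with the largest differences were named, besides genes that a statement on a member turns on, and of the genes most like a member up to 3. The values given between the genotypes and for differences of differences are those of S100a4 and of the member with the smallest p, which was picked after the values were seen. Log2 CPM for correlations had a prior count of 2. Motifs were counted in 250 upstream bases of RefSeq promoters. Gene positions and lengths are those of the deposited count tables, and symbols and gene types those of GENCODE M21. Alternatives were limma 3.58.1 voom with quality weights (the study's test), DESeq2 1.42.0, RLE factors, no filter, a replicate block, each genotype alone, and libraries left out. The authors' comparisons and the other data of the study were not used here.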

Additional observations from a re-analysis of the deposited data

How the results depend on the processing

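The count of 7 members called between CD45+ and CD45- cells was 7 or 6 under every alternative run, with 6 in the WT libraries alone, where S100a1 was not called; S100a8 was not called there either (adjusted p = 0.0568), nor S100a9 in the cKO libraries alone (adjusted p = 0.079). The signs of S100a4 and S100a10 in that comparison were not stable: S100a4 was 0.0064 with voom and 0.070 in WT libraries alone, and S100a10 was -0.016 with DESeq2 and with RLE factors and -0.13 in cKO libraries alone. Leaving out single libraries moved S100a4 from -0.40 to 0.48 and S100a10 from -0.093 to 0.27, in both cases through the TdT single positive WT replicates 1 and 2.

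In TdT single positive against double negative cells, 0 members were called, but 1 (S100a10) with voom, with DESeq2 and without both libraries that stand apart, and 1 (S100b) in cKO libraries alone, where S100a16 was -0.034. Leaving out single libraries gave 0 to 2 members, the latter being S100a4 and S100a10 without TdT single positive WT replicate 2. Among all genes this comparison called 284, and between 0 in the WT libraries alone and 1509 without both libraries that stand apart. DESeq2 called 522 genes between genotypes in double negative cells, where edgeR called 0 and, without double negative WT replicate 1, 604. In the WT libraries alone 5575 genes were called between CD45+ and CD45- cells, against 9570 in all libraries.

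Other S100a4 values turned sign as well. Between double positive and CD45 single positive cells it was 0.43 in WT libraries alone, and between genotypes in double negative cells -0.19 with voom and -0.15 to 0.89 over libraries left out. In TdT single positive cells the genotype value ran from -0.15 to 3.38. The difference of the TdT effect in cKO libraries alone was 0.021 for S100a4 and 0.022 for S100a10. Of the 49 member estimates not printed one by one, none was called under any of the 30 alternatives, and 77 of their 1400 values had the opposite sign. The cause of these changes was not tested.

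A replicate block kept the number of members called, 7 between CD45+ and CD45- cells and 0 in each other comparison. Deviations of libraries with the same number in a genotype had a median correlation of 0.0517 over 30 pairs (-0.30 to 0.59). For 60 pairs with different numbers the median was -0.0215 (-0.59 to 0.43). These ranges overlapped, so they do not settle whether the numbers pair the samples. The study sorted all populations from the tumors of these mice, so libraries may share a mouse. The main fit took all libraries as independent. Depth limits S100a14 most, with a total of 41 reads in CD45+ libraries.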
